A study of Mus musculus with 6 samples.

Results

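Tau, the kinases that phosphorylate it and the phosphatase that removes the phosphate were followed as 10 genes in the brain of old wild-type (WT) and Sgo1-/+ mice. The genes are Mapt, which encodes tau, its relative Map2, the kinase genes Cdk5, Gsk3a, Gsk3b, Mark1 and Fyn, the CDK5 activator genes Cdk5r1 and Cdk5r2, and Ppp2ca, which encodes a catalytic subunit of protein phosphatase 2A (PP2A). They were chosen by name, and all 10 were found among the 38087 genes of the deposited table. Of these, 9 were listed under the same symbol, and Map2 was matched by its gene identifier because the table lists it under the older symbol Mtap2.

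Brain RNA came from 3 WT and 3 Sgo1-/+ mice of C57BL6 background, each 24 months of age, and 1 library was sequenced from each. The paper describes the tissue as cerebrum in which hippocampus and cortex were kept. By its account, medulla, cerebellum and the olfactory bulb were left out. Marker genes of the hindbrain were nevertheless high in WT replicate 1, and those of olfactory bulb differed between libraries, as given below. How complete the removal was in each library was not tested. The Sgo1-/+ mice carry 1 working copy of Sgo1, which encodes the shugoshin that protects cohesin at centromeres, so the comparison is of heterozygous with wild-type animals, without treatment. The males were WT replicate 1 and Sgo1-/+ replicate 2, and the 4 remaining mice were females. All WT libraries belong to run 258 and all Sgo1-/+ libraries to run 259, which means that run and genotype cannot be told apart. Below, the 3 values of a group stand in the order of its replicates 1, 2 and 3.

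The total estimated count was between 11123917 and 12505561 per library. The targeted gene, Sgo1, had estimated counts of 0, 7 and 0 in the WT libraries and of 4, 2 and 0 in the Sgo1-/+ libraries, so a difference in Sgo1 was not detectable at this depth. WT replicate 1 stood apart from the other libraries. Genes of the hindbrain were high in it, with a summed level of 1578 CPM (counts scaled to a common library size) for 9 marker genes of cerebellar granule cells against 44.5 to 147 in the other 5 libraries. The summed level of 7 Purkinje cell genes was 3804 CPM against 1085 to 1366, and that of 10 genes of medulla and brain stem 366 CPM against 2.25 to 5.25. Of the brain stem genes, 7 were at 0 in at least 1 library and 0 were at 0 in WT replicate 1. In the same library, 8 cortex genes summed to 315 CPM against 464 to 591, and 9 hippocampus genes to 136 CPM against 259 to 342, while 8 neuron genes were within the range of the other libraries (7357 CPM against 6498 to 8170). Glial genes were high in it too, with 4381 CPM for 6 astrocyte genes against 2014 to 2785 and 12578 CPM for 6 oligodendrocyte genes against 4485 to 10745. Each comparison of the groups was therefore computed with and without WT replicate 1. The order of the genes by level and the likeness to Mapt, given below, used all 6 libraries only. Marker genes still differed between the groups without WT replicate 1. All 6 oligodendrocyte genes were then higher in Sgo1-/+ at an unadjusted p-value under 0.05 from edgeR, with a median log2 fold change of 0.87. Of 8 olfactory bulb genes, 7 were lower at that threshold, with a median of -2.14. In that fit 7 of 7 Purkinje cell genes (median 0.36), 8 of 9 hippocampus genes (0.53) and 6 of 6 microglia genes (0.21) were higher. Of each of these 3 lists, 1 gene was higher at that threshold. Astrocyte genes were split 5 higher to 1 lower and endothelial genes 4 to 2. Neuron and cortex genes were split 4 to 4 each, and cerebellar granule cell genes 3 higher to 5 lower. Of all genes tested, 1.86% were higher and 1.91% lower, and 0 of these marker genes had an adjusted p-value under 0.05. In such bulk RNA, fewer cells of a type and less RNA per cell cannot be told apart.

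Tau binds along microtubules in axons and stabilizes them, and phosphate groups on tau loosen that binding. The phosphate is put on by kinases of several families. CDK5 is active only with one of its neuronal activators, p35 (from Cdk5r1) or p39 (from Cdk5r2), GSK-3 acts at sites that precede a proline, MARK kinases act within the repeats that bind microtubules, and the tyrosine kinase FYN acts near the amino end of tau. PP2A is the main tau phosphatase of the brain. Counts of RNA do not measure the phosphorylation of the protein.

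None of the 10 genes differed between Sgo1-/+ and WT past the threshold. All 10 passed the filter on low counts, and 0 had an adjusted p-value under 0.05 in edgeR's quasi-likelihood test, where 0% of the 16337 genes tested were called. At an unadjusted p-value under 0.05 the count was also 0 of the 10 genes, against 2.04% of all genes tested (0.808% higher and 1.23% lower in Sgo1-/+), and DESeq2's Wald test and limma also called 0 of the 10. The mean was higher in Sgo1-/+ for 9 genes and lower for Fyn, whereas it was higher for 49.8% of all genes tested, with log2 fold changes from -0.13 for Fyn to 0.52 for Cdk5r2. The median log2 fold change of the 10 genes was 0.12, against -0.00069 for all genes tested. Without WT replicate 1 the median was 0.01, with 6 genes higher and 4 lower (51.3% of all genes were higher in that fit), and 0 of the 10 had an unadjusted p-value under 0.05 (3.77% of all genes, 1.86% higher and 1.91% lower). Leaving out WT replicate 3, the highest WT library for all of these genes except Fyn, instead gave larger log2 fold changes for the 9 genes with a higher mean, and 2 of the 10, Cdk5r2 and Mark1, then had an unadjusted p-value under 0.05, against 6.21% of all genes, with an adjusted p-value of 0.764 for both in edgeR. The normalized counts of the 2 groups overlapped for all 10 genes, while 6.85% of all genes tested had groups that did not overlap. The lowest library was WT replicate 1 for 7 of the 10 genes and for 30.2% of all genes tested. The adjusted p-value of every one of the 10 genes was 0.9999 in edgeR, after the Benjamini-Hochberg correction over all genes tested.

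**Figure D1:**
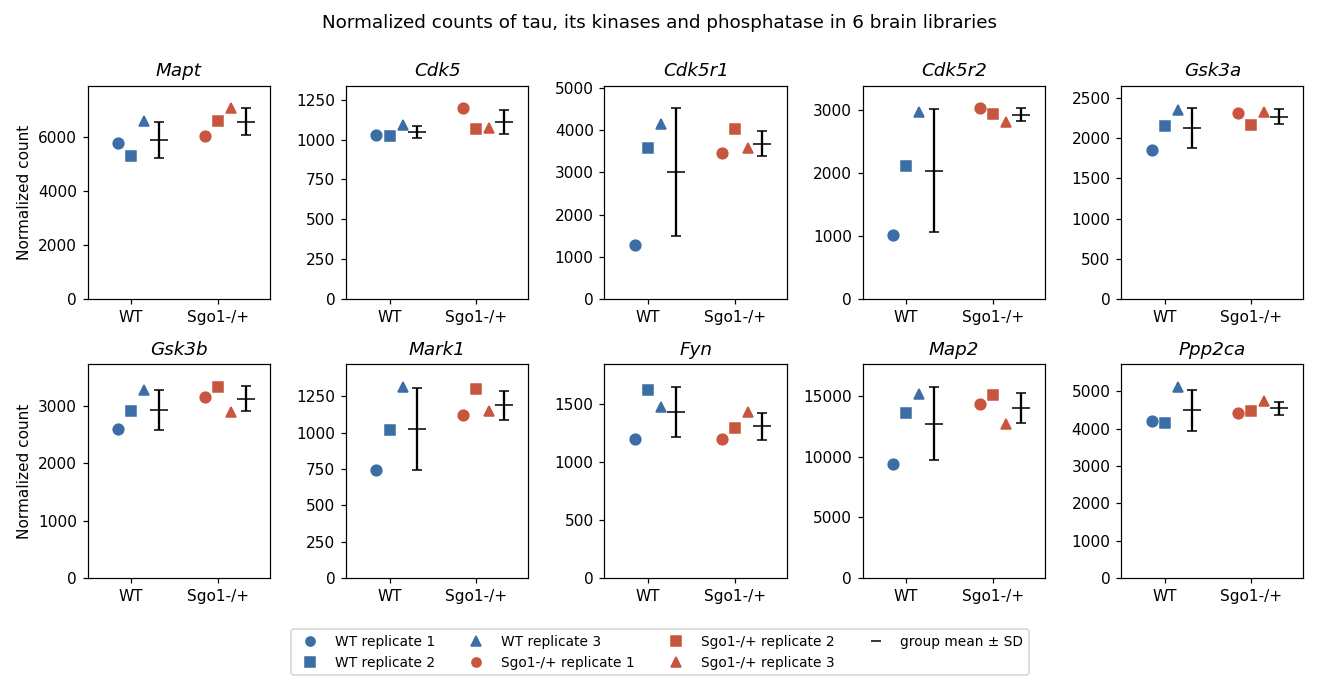
Normalized counts of the 10 genes (y axes, from 0) in WT and Sgo1-/+ libraries, with 1 point per library and the group mean ± SD (n = 3) beside the points. The low point of Cdk5r1 and Cdk5r2 in WT is WT replicate 1, at 1293 and 1023 normalized counts.

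Mapt (ENSMUSG00000018411) lies on the + strand of chromosome 11 of mm10 from 104231390 to 104332090 and has 16 separate exon blocks in the annotation. The WT libraries held 5773, 5286 and 6606 normalized counts of Mapt and the Sgo1-/+ libraries 6052, 6597 and 7055. The groups overlapped, with WT replicate 3 above Sgo1-/+ replicates 1 and 2, and the lowest library was WT replicate 2. WT averaged 5888 ± 667 and Sgo1-/+ averaged 6568 ± 502 (SD, n = 3 each) (exact two-sided permutation test, p = 0.3, in a design whose smallest possible p is 0.1). The log2 fold change was 0.16 (SE 0.136), with a 95% interval from -0.16 to 0.48. Mapt was among the genes that depended least on WT replicate 1, without which its log2 fold change was 0.14 (SE 0.131).

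Map2 (ENSMUSG00000015222) encodes the microtubule-associated protein of dendrites, which shares the microtubule-binding repeats of tau. It lies on the + strand of chromosome 1 from 66175273 to 66442583. Normalized counts of Map2 reached 9368, 13612 and 15153 in WT and 14284, 15042 and 12652 in Sgo1-/+. WT replicate 1 was below all the other libraries, and the other 5 differed by at most 1.20-fold. The log2 fold change of Map2 moved from 0.14 (SE 0.202) to -0.04 (SE 0.116) when WT replicate 1 was left out, so its direction rested on that library. The antisense gene Gm10558 shares 124 exon bases with Map2, and reads there could not be told apart if strand was not used in counting.

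Cdk5 (ENSMUSG00000028969), the gene of the kinase itself, lies on the - strand of chromosome 5 from 24418250 to 24423530. The libraries of WT held 1030.3, 1024 and 1088 normalized counts of Cdk5, and those of Sgo1-/+ held 1195, 1065 and 1070.2. It was the steadiest of the 10 genes, with a highest library 1.17 times the lowest. WT averaged 1047 ± 35.4 and Sgo1-/+ averaged 1109.9 ± 73.6 (SD, n = 3 each), and the log2 fold change was 0.08 (SE 0.0982), with a 95% interval from -0.15 to 0.32.

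The 2 CDK5 activators did not share the steadiness of the kinase. Cdk5r1 (ENSMUSG00000048895), the gene of p35, is a gene of 1 exon block on the + strand of chromosome 11 from 80477046 to 80481179. Normalized counts of Cdk5r1 were 1293, 3584 and 4134 in WT and 3447, 4027 and 3569 in Sgo1-/+. The 5 libraries other than WT replicate 1 lay within 1.20-fold of each other, and WT replicate 1 was at 36.1% of their median. Cdk5r2 (ENSMUSG00000090071), the gene of p39, also has 1 exon block, on the + strand of chromosome 1 from 74855029 to 74857732. It had 1023, 2106 and 2965 normalized counts in WT and 3020.4, 2937 and 2808 in Sgo1-/+. WT replicate 1 was at 34.8% of the median of the other libraries, WT replicate 2 was the next lowest, and WT replicate 3 lay among the Sgo1-/+ libraries.

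The WT spread of both activators was therefore wide, with a coefficient of variation of 50.2% for Cdk5r1 and 47.9% for Cdk5r2 in WT against 8.31% and 3.67% in Sgo1-/+. For Cdk5r1 WT averaged 3004 ± 1507 and Sgo1-/+ averaged 3681 ± 306 (SD, n = 3 each) (exact two-sided permutation test, p = 0.9). Its log2 fold change of 0.29 (SE 0.389) turned to -0.07 (SE 0.116) without WT replicate 1. For Cdk5r2 WT averaged 2031 ± 973 and Sgo1-/+ averaged 2922 ± 107 (SD, n = 3 each) (exact two-sided permutation test, p = 0.3). The log2 fold change of Cdk5r2 was 0.52 (SE 0.345), the largest of the 10 genes, with a 95% interval from -0.29 to 1.34. Leaving out WT replicate 1 gave 0.20 (SE 0.149), and leaving out WT replicate 3 gave 0.90 (SE 0.306, unadjusted p = 0.0270 from edgeR). The high hindbrain, astrocyte and oligodendrocyte markers and the low cortex and hippocampus markers in WT replicate 1, given above, moved with these low values, and their part in them was not tested.

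In WT replicate 1, Cdk5r1, Cdk5r2, Mark1 and Map2 lay under 75% of the next lowest library, as did 12.1% of all genes tested, and Cdk5r1 and Cdk5r2 lay under 50% of it, as did 4.69%. Of these 4 genes, promoter sequence was at hand for Cdk5r2, Mark1 and Map2. The promoters of Cdk5r2 and Map2 are shown as 2 that were low together in that library, and that of Ppp2ca as a gene that was not. They are RefSeq windows of GRCm38.p6, the build of the files, from 250 bases before to 50 bases after a gene start, on the + strand at chr1:74854779-74855078 (Cdk5r2), chr1:66175079-66175378 (Map2) and chr11:52098574-52098873 (Ppp2ca). Capitals mark each GC box, GGGCGG on either strand.
Cdk5r2: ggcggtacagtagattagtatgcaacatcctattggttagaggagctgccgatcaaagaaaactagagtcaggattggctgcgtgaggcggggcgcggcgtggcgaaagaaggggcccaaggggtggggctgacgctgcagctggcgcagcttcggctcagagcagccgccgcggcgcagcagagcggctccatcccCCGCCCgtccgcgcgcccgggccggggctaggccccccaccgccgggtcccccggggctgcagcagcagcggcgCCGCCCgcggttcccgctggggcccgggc
Map2: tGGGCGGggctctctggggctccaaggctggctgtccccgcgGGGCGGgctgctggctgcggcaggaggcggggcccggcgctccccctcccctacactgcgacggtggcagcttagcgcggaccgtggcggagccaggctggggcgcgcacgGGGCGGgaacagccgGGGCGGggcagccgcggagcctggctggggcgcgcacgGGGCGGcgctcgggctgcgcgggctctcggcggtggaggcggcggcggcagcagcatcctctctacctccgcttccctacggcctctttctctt
Ppp2ca: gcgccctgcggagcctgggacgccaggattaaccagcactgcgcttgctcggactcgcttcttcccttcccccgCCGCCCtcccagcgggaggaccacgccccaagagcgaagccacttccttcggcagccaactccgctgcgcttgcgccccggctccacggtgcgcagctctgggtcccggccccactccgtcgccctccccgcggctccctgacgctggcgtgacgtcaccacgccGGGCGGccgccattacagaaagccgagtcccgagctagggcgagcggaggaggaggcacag
The Cdk5r2 window held 2 GC boxes, the Map2 window 5 and the Ppp2ca window 2, and 35.7% of the 32851 promoter windows held at least 1. GC content was 71.7%, 77.7% and 71.7%, against a median of 52.7% for all windows. The letters of the cAMP response element, TGACGTCA, was found once in the Ppp2ca window (left in lower case there) and in 1.79% of all windows. It was not found in the windows of Cdk5r2 and Map2, and a TATA box, TATAAA on either strand, was in 0 of these 3 windows and in 13.6% of all windows. These matches describe the letters of the windows and say nothing about binding.

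The 2 genes of GSK-3 varied little. Gsk3a (ENSMUSG00000057177), on the - strand of chromosome 7 from 25228258 to 25237851, had 1859.8, 2152 and 2353 normalized counts in WT and 2312, 2160.3 and 2329 in Sgo1-/+. Gsk3b (ENSMUSG00000022812), on the + strand of chromosome 16 from 38089001 to 38246084, had 2594, 2913 and 3281 in WT and 3156, 3325 and 2899 in Sgo1-/+. Both were lowest in WT replicate 1, at 80.4% and 82.2% of the median of the other libraries. The log2 fold changes, 0.10 for Gsk3a (SE 0.121) and 0.09 for Gsk3b (SE 0.128), both came near 0 without WT replicate 1, at 0.01 (SE 0.0961) and 0.01 (SE 0.108). The 95% interval of the latter fits reached from -0.22 to 0.23 for Gsk3a and from -0.24 to 0.27 for Gsk3b. The antisense gene 9130221H12Rik shares 820 exon bases with Gsk3a, so reads there could not be told apart if strand was not used.

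Mark1 (ENSMUSG00000026620), a microtubule affinity-regulating kinase, lies on the - strand of chromosome 1 from 184896443 to 184999549. It had 746, 1020.4 and 1312 normalized counts in WT and 1118, 1302 and 1146 in Sgo1-/+. WT replicate 1 was lowest, at 65.1% of the median of the other libraries, and WT replicate 3 was the highest of the 6. The log2 fold change of 0.21 (SE 0.205) became 0.03 (SE 0.135) without WT replicate 1 and 0.43 (SE 0.171, unadjusted p = 0.0477 from edgeR) without WT replicate 3.

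Fyn (ENSMUSG00000019843), a Src-family kinase of neurons and oligodendrocytes, lies on the + strand of chromosome 10 from 39368855 to 39565381. Fyn was the gene whose mean was lower in Sgo1-/+. Libraries of WT held 1203, 1623 and 1481 normalized counts of Fyn, and those of Sgo1-/+ held 1205, 1298 and 1435. WT replicates 2 and 3 were above all 3 Sgo1-/+ libraries, and WT replicate 1 was the lowest library, level with Sgo1-/+ replicate 1. WT averaged 1436 ± 214 and Sgo1-/+ averaged 1313 ± 116 (SD, n = 3 each) (exact two-sided permutation test, p = 0.5). Its log2 fold change of -0.13 (SE 0.142) was -0.24 (SE 0.108) once WT replicate 1 was left out, where the unadjusted p-value from edgeR was 0.0591 and the adjusted p-value 0.9995. In that fit Fyn was the 1 member whose groups did not overlap, as in 18.0% of all genes. Leaving out WT replicate 2 instead gave -0.03. The 6 oligodendrocyte genes summed to 12578, 4485 and 4669 CPM in WT and to 6256, 6135 and 10745 CPM in Sgo1-/+, so WT replicate 1 had the highest sum and the lowest Fyn, and the part of these sums in the values of Fyn was not tested.

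Ppp2ca (ENSMUSG00000020349), the alpha form of the PP2A catalytic subunit, lies on the + strand of chromosome 11 from 52098681 to 52127778. Normalized counts of Ppp2ca were 4205, 4154 and 5115 in WT and 4432, 4472 and 4746 in Sgo1-/+. All 3 Sgo1-/+ libraries lay inside the range of the WT libraries. WT averaged 4491 ± 541 and Sgo1-/+ averaged 4550.1 ± 171 (SD, n = 3 each) (exact two-sided permutation test, p = 1), and the log2 fold change was 0.02 (SE 0.127), with a 95% interval from -0.28 to 0.32. The noncoding gene 9430098F02Rik on the other strand shares 2985 exon bases with Ppp2ca, so its values are uncertain if strand was not used.

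**Figure D2:**
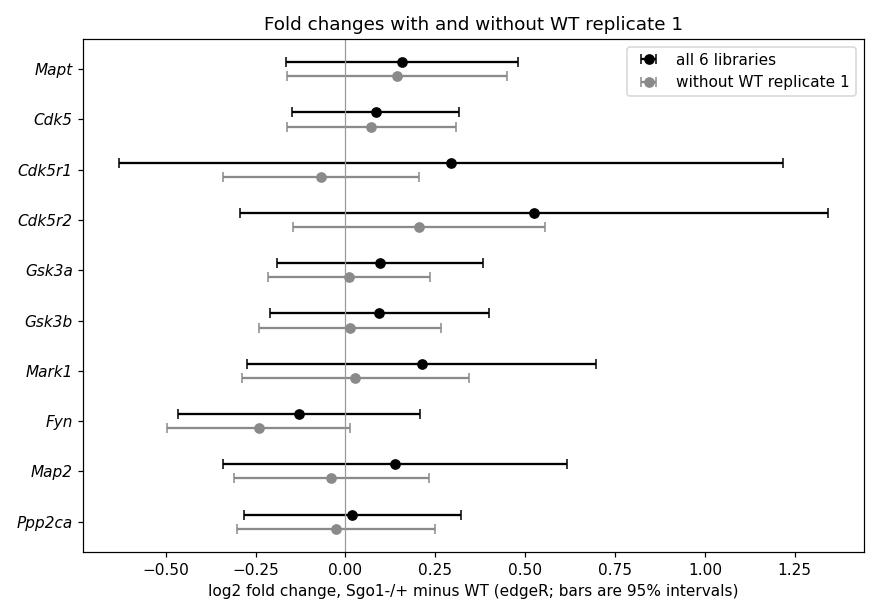
Log2 fold changes of Sgo1-/+ minus WT (x axis) for the 10 genes, from edgeR with all 6 libraries (black) and without WT replicate 1 (grey), with 95% intervals. All 20 intervals include 0, and those of Cdk5r1 and Cdk5r2 are the widest with all libraries (-0.63 to 1.22 and -0.29 to 1.34).

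Levels of different genes were compared per length, in TPM, which scales each count by the length of the annotated exons and by the library. The activator gene Cdk5r2 had the highest median over the 6 libraries, 292 TPM, and Cdk5r1 followed with 248 TPM. Mapt and Map2 were at 242 TPM each, Gsk3a at 219, Ppp2ca at 172, Cdk5 at 142, Fyn at 89.5, Gsk3b at 87.9 and Mark1 at 72.9 TPM. The ranges of the first 5 genes overlapped between neighbours in this order, so their order is not resolved by these libraries. The ranges of Gsk3a and Ppp2ca, of Ppp2ca and Cdk5, and of Cdk5 and Fyn did not overlap. Fyn, Gsk3b and Mark1 overlapped in their ranges, although Gsk3b was above Mark1 in 6 of 6 libraries. Cdk5 RNA was below that of each activator in 5 libraries, and in WT replicate 1 the order was turned, with 146 TPM for Cdk5, 112 TPM for Cdk5r2 and 95.2 TPM for Cdk5r1. Levels per length depend on the exon model, which for Gsk3b (9831 bases) and Map2 (16449 bases) joins many alternative ends and exons.

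**Figure D3:**
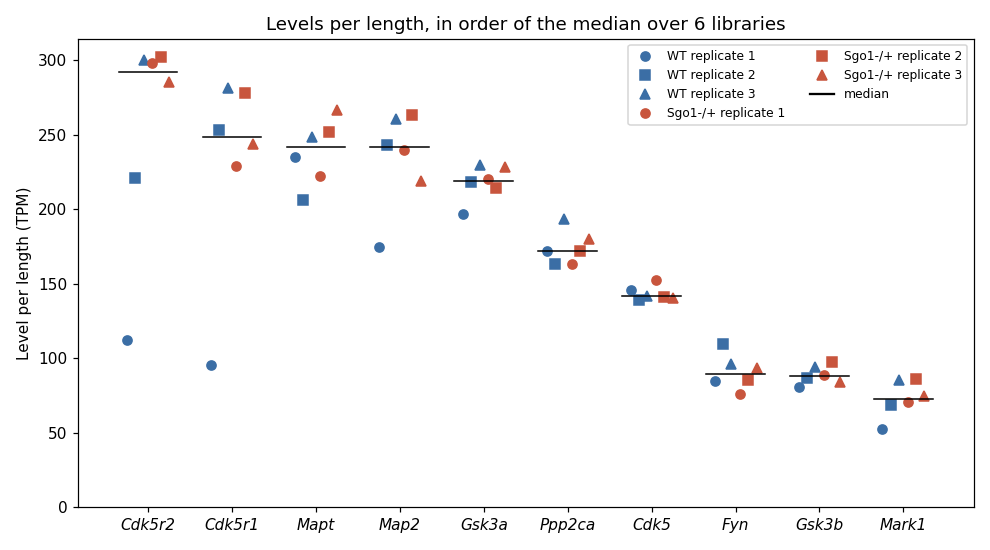
Level per length in TPM (y axis, from 0) of the 10 genes in each library, ordered by the median over the 6 libraries (black line). In WT replicate 1, Cdk5r2 and Cdk5r1 fall below Cdk5, at 112, 95.2 and 146 TPM.

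Ratios of 2 genes within a library do not depend on library size, and 6 of them were tested between the groups by exact permutation (two-sided). The exact permutation p-values were between 0.3 and 1 for all 6 ratios, with a smallest possible p of 0.1, so none could have passed 0.05. The log2 ratio of Cdk5r1 to Cdk5 counts was 0.33 in WT replicate 1, against 1.81 and 1.93 in the other WT libraries and 1.53, 1.92 and 1.74 in Sgo1-/+. That of Cdk5r2 to Cdk5 was -0.01 in WT replicate 1, against 1.04 and 1.45 in the other WT libraries and 1.34, 1.46 and 1.39 in Sgo1-/+. WT replicate 1 thus had less RNA of both activators for the same RNA of the kinase, while the other 5 libraries lay close together.

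The 2 activators kept nearer to each other over all 6 libraries, but not over the 5 libraries other than WT replicate 1. In those 5, the log2 ratio of Cdk5r1 to Cdk5r2 lay between 0.19 and 0.77. There, Cdk5r1 to Cdk5 lay between 1.53 and 1.93, and Cdk5r2 to Cdk5 between 1.04 and 1.46. The log2 ratio of Cdk5r1 to Cdk5r2 was 0.34, 0.77 and 0.48 in WT and 0.19, 0.46 and 0.35 in Sgo1-/+. The groups overlapped through WT replicate 1 alone. Without it the difference of -0.29 had groups that did not overlap, and the exact permutation p of 0.2 is the smallest that 2 libraries against 3 allow. Gsk3b to Gsk3a had a mean log2 ratio of 0.47 ± 0.0250 for WT and 0.46 ± 0.154 for Sgo1-/+ (SD, n = 3 each). Mapt to Map2 was -0.70 in WT replicate 1 and -0.84 in Sgo1-/+ replicate 3, the 2 highest values, and between -1.36 and -1.19 in the other 4 libraries. Ppp2ca to Ppp2cb, the 2 forms of the PP2A catalytic subunit, had a mean log2 ratio of 1.79 ± 0.0928 for WT and 1.69 ± 0.109 for Sgo1-/+ (SD, n = 3 each). Ppp2cb itself had a log2 fold change of 0.12 (SE 0.126).

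**Figure D4:**
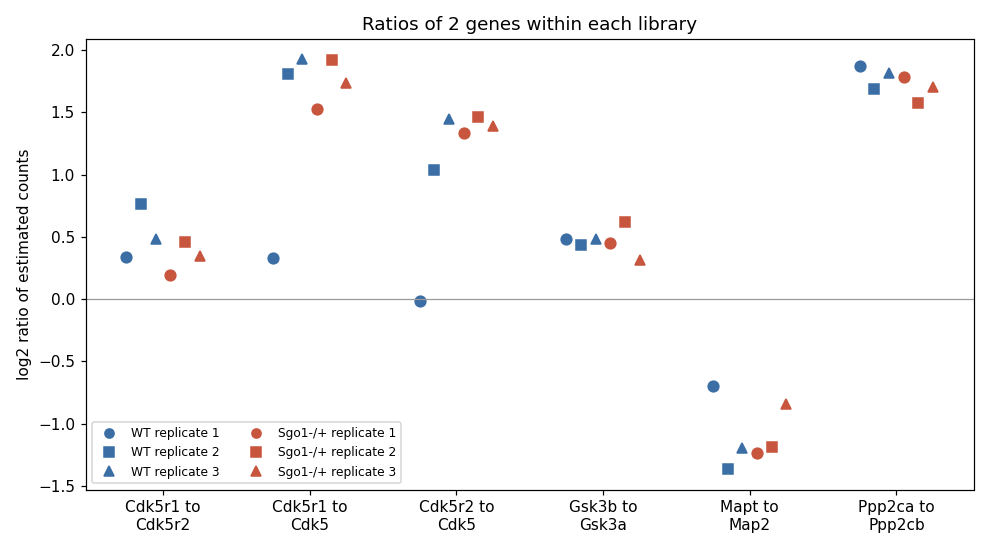
Log2 ratios of estimated counts of 2 genes within each library (y axis), with 1 point per library. WT replicate 1 lies apart from the other libraries in the ratios of Cdk5r1 (0.33) and Cdk5r2 (-0.01) to Cdk5.

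Other genes of tau biology were read from lists. Of 27 other tau kinases, 20 were higher and 7 lower in Sgo1-/+, with a median log2 fold change of 0.10, and 0 had an unadjusted p-value under 0.05. Without WT replicate 1 the kinases were split 14 to 13, with a median of 0.0024. In WT replicate 1, 22 of the 27 kinases were lowest of the 6 libraries, and the part of the hindbrain and glial markers of that library in this was not tested. Camk2a, a kinase of the forebrain synapse and the most abundant of the list, had 3573 normalized counts in WT replicate 1, 31083 and 37029.5 in the other WT libraries, and between 29744 and 37022 in Sgo1-/+. Its log2 fold change of 0.53 (SE 0.712) was 0.02 (SE 0.138) once that library was left out. Mark2, of the family of Mark1, had groups that did not overlap, with 675, 1057 and 1092 normalized counts in WT and 1189, 1266 and 1159 in Sgo1-/+, but its log2 fold change was 0.36 (SE 0.189, unadjusted p = 0.102 and adjusted p = 0.9999 from edgeR) and 0.17 (SE 0.0930) without WT replicate 1. Mark2 was named after its values were seen, and it was the 1 of the 27 kinases whose groups did not overlap. Of all genes tested, 6.85% had such groups.

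Of 19 other PP2A subunits and regulators, 11 were higher and 8 lower, with a median of 0.10 and 0 unadjusted p-values under 0.05. Without WT replicate 1 the split was 9 to 10, with a median of -0.0020. The scaffold subunit gene Ppp2r1a was the most abundant, with 5159.9, 6369.7 and 6742 normalized counts in WT and 6662, 6705 and 6269.7 in Sgo1-/+. The regulatory B subunit gene Ppp2r2a, named after its values were seen, had 770.2, 1199 and 1283 in WT and 1413, 1549 and 1329 in Sgo1-/+. Ppp2r2a was the 1 of the 19 genes whose groups did not overlap, where 6.85% of all genes tested had such groups. Its log2 fold change was 0.40 (SE 0.198, unadjusted p = 0.0835 and adjusted p = 0.9999 from edgeR) and 0.21 (SE 0.104) without WT replicate 1. Of 7 other tau phosphatases, 6 were higher and 1 lower, with a median of 0.13 and 0 unadjusted p-values under 0.05. This split rested on WT replicate 1, without which 4 were higher and 3 lower, with a median of 0.04. Their most abundant gene, Ppp3r1, the regulatory subunit of calcineurin, had 4843 normalized counts in WT replicate 1, where the other 5 libraries had 11326 to 12721.

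The 9 genes listed under CDK5 activator processing and binding partners had 3 higher and 6 lower, with a median of -0.13 and 0 unadjusted p-values under 0.05. Without WT replicate 1, 4 were higher and 5 lower, with a median of -0.00047, and 1 of them, the intermediate filament gene Nes, was higher at an unadjusted p-value of 0.0480 from edgeR, where 1.86% of all genes were higher at p under 0.05. Nes, named after its values were seen, had 235, 102 and 131 normalized counts in WT and 279.7, 155 and 148 in Sgo1-/+. From edgeR, Nes had a log2 fold change of 0.32 (SE 0.381) with all libraries and 0.74 (SE 0.313) without WT replicate 1. Ppp1r1b, which encodes the striatal phosphoprotein DARPP-32, had 1197 normalized counts in WT replicate 1, where the other 5 libraries had 4100.0 to 8684. Of 18 other structural microtubule-associated proteins, 11 were higher and 7 lower, with a median of 0.02 and 0 unadjusted p-values under 0.05. Stmn3, a stathmin relative and their most abundant gene, had between 4479 and 5789 normalized counts and a log2 fold change of -0.04. Without WT replicate 1, 2 of these genes were lower at an unadjusted p-value under 0.05, Dcx and Map9, with log2 fold changes of -1.16 and -0.28, and the same was true of 1.91% of all genes. With all libraries these were -0.71 (SE 0.573) for Dcx and 0.0011 (SE 0.290) for Map9, and the list was split 9 to 9 without WT replicate 1. Dcx, the doublecortin of young migrating neurons, had 176, 1064 and 744.5 normalized counts in WT and 513, 386.5 and 312 in Sgo1-/+. Olfactory bulb markers, 8 genes, summed to 218 and 159 CPM in WT replicates 2 and 3 and to at most 104 CPM in Sgo1-/+, and their part in the values of Dcx was not tested. Dcx and Map9 were named after their values were seen, and the adjusted p-value of both was 0.9995 in that edgeR fit.

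Of 14 tubulin genes, 7 were higher and 7 lower, with a median of 0.01, and 2 were lowest in WT replicate 1. Without that library 11 were higher and 3 lower, with a median of 0.06. Tuba1a was the most abundant tubulin, at a log2 fold change of 0.09 (SE 0.136). Tuba8 was lower in Sgo1-/+ at an unadjusted p-value of 0.0155, where 1.23% of all genes were lower at p under 0.05, and its adjusted p-value was 0.9999 in edgeR. Normalized counts of Tuba8 were 252, 225 and 290.1 in WT and 194, 110.2 and 157 in Sgo1-/+. Tuba8 was the 1 of the 14 tubulin genes whose groups did not overlap, where 6.85% of all genes tested had such groups. Its log2 fold change of -0.73 (SE 0.228) was -0.74 without WT replicate 1. Of 17 genes of tau turnover, folding and uptake, 9 were higher and 8 lower, with a median of 0.01 and 0 unadjusted p-values under 0.05, and without WT replicate 1 the split was 11 to 6, with a median of 0.06. The most abundant of them was the chaperone gene Hsp90ab1, at a log2 fold change of 0.10 (SE 0.129). No adjusted p-value in these 7 lists was under 0.05, with or without WT replicate 1. Of the 111 genes in these 7 lists, 6 had groups that did not overlap with all libraries, against 6.85% of all genes tested.

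**Figure D5:**
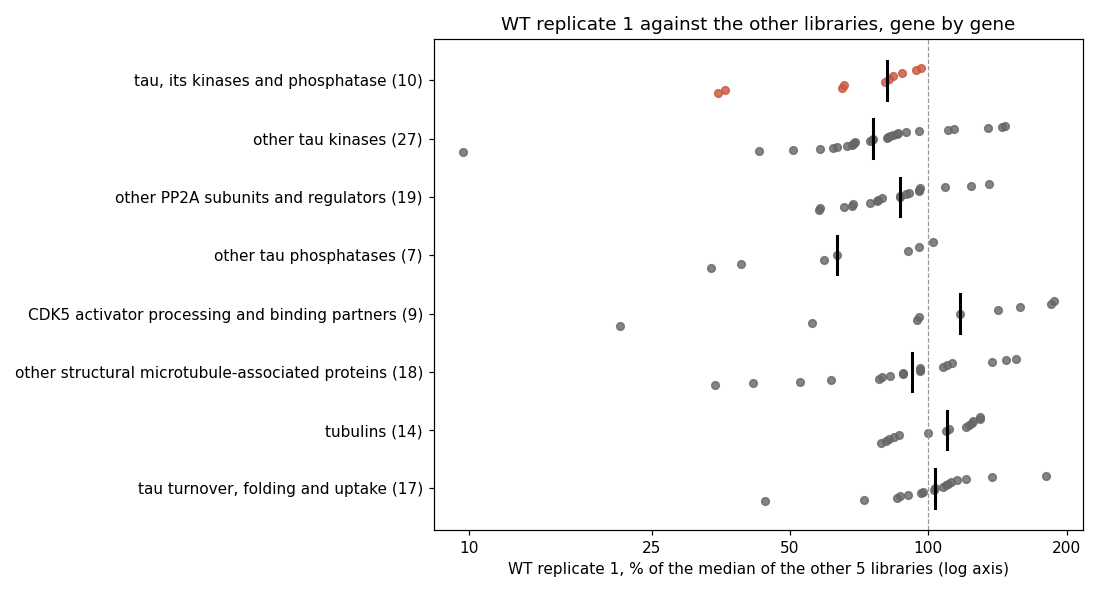
WT replicate 1 as a percentage of the median of the other 5 libraries (x axis, log scale), with 1 point per gene and the median of each set as a black bar. The median is 81.3% for the 10 genes, 75.8% for other tau kinases, 63.2% for other tau phosphatases and 110.1% for tubulins, against 99.9% for all genes tested.

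The 3 genes with a pattern most like that of Mapt over the 6 libraries were Exoc4, Stoml1 and Fam168a, among 16336 genes compared. Likeness was the root mean square difference of log2 CPM, with each gene centred on its own median, and it was 0.0297, 0.0313 and 0.0323 for these genes. Mapt itself ranged from -0.26 in WT replicate 2 to 0.16 in Sgo1-/+ replicate 3 on this scale, and Exoc4 from -0.24 to 0.10 in the same libraries. With 6 libraries and so flat a pattern, this is a description of the values only.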

How the data were processed

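RNA of 6 mouse brains was sequenced on an Illumina MiSeq. The authors used Strand NGS 2.1 to align paired reads to mm10, and they deposited an estimated count per Ensembl gene and library without normalization. The authors' own normalized log values and fold changes were not used. The Ensembl release and any use of strand in counting are not given in the sources used here. The count columns carry brain numbers, of which 1 to 3 were taken as WT and 4 to 6 as Sgo1-/+, and the labelled sex matched the counts of sex-linked genes in 6 of 6 libraries. The members and lists were chosen with earlier results of these data known.

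Before testing, each estimated count was rounded. The main test was edgeR 4.0.16 with its quasi-likelihood fit, TMM scaling and default filter (16337 genes, Benjamini-Hochberg over all of them, threshold 0.05). The SE is the size of the log2 fold change divided by the square root of F. A normalized count is the estimated count over the TMM library size, times the mean of that size. TPM used the joined exons of GENCODE M21, which holds 36308 of the 38087 gene IDs. For single values, two-sided exact permutation tests ran over 20 groupings. Replicates are separate mice. Counting error alone allows up to 3 counts where a gene is at 0. Named genes are the 10 genes, Ppp2cb, Sgo1, the most abundant gene of each list with up to 3 that had an unadjusted p-value under 0.05, and 3 genes most like Mapt, and any gene named outside this rule is said to have been named after its values were seen. Alternatives were DESeq2 1.42.0 (Wald test), limma 3.58.1 on log2 normalized counts with a pseudocount of 1, size factors of DESeq2, 2 other filters, sex, the replicate number as a block and each library left out. The tests were first tried on simulated counts with the same spread for all genes and no library set apart. That trial does not cover a library such as WT replicate 1.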

Additional observations from a re-analysis of the deposited data

How the results depend on the processing

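The count of genes past the adjusted threshold was 0 with edgeR's quasi-likelihood test (333 genes at an unadjusted p-value under 0.05), 3 with DESeq2's Wald test and from 0 to 1 with each library left out, the 1 gene appearing without Sgo1-/+ replicate 2. None of these calls was one of the 10 genes. At an unadjusted p-value under 0.05, 2 of the 10 passed without WT replicate 3 (1040 of 16741 genes tested did) and 0 in each other alternative. Their adjusted p-values were between 0.764 and 1.00 over all alternatives, and of their 130 alternative log2 fold changes 125 kept their direction. The other 5 came from leaving out a library: over such fits the log2 fold change lay between -0.068 and 0.60 for Cdk5r1, -0.039 and 0.29 for Map2, and -0.034 and 0.12 for Ppp2ca, negative without WT replicate 1 for all 3 and also without WT replicate 2 or Sgo1-/+ replicate 3 for Ppp2ca. The differences in log2 ratio lay between -0.14 and 0.66 for Cdk5r1 to Cdk5, -0.083 and 0.070 for Gsk3b to Gsk3a, and -0.14 and 0.19 for Mapt to Map2, so the sign of these 3 differences rested on single libraries. The replicate numbers are shared by the labels, and whether they pair the mice was not settled here. Same-numbered libraries had correlations of -0.15, 0.01 and -0.21 between their deviations from the group means. For differently numbered libraries the correlations were between -0.23 and 0.30. Deviations from a mean are tied to each other within a group, so these correlations cannot decide on pairing. With the replicate block, 0 genes were called (280 at an unadjusted p-value under 0.05), and the log2 fold change of Cdk5r2 was 0.65. With sex as a covariate it was 0.63.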
